A study of Mus musculus with 12 samples.

Results

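RNA of 39 genes of fatty acid oxidation and the peroxisome was compared between adipose vascular anomalies and normal adipose tissue of mice. The genes form a list of enzymes, carriers, transporters and assembly factors chosen by symbol, and all 39 were found among the 32774 gene identifiers of the deposited table. All 39 passed the filter on low values, which left 12955 genes for testing, and each had a mean above the filter's limit of 1 log2 CPM in the anomalies as well as in normal tissue. The lowest anomaly mean among them was 2.28 (Acaa1b) and the lowest normal mean 3.66 (Pex10). CPM is the count of a gene scaled to the size of its library, and the values below are the deposited log2 CPM unless another scale is named.

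Adipose vascular anomalies are lesions of vessels within fat. They came from C57BL/6 mice of the genotype VEC-Cre, SB Transposase and onc3, in which the VE-cadherin promoter, active in endothelium, drives Cre recombinase, and a Sleeping Beauty transposase acts on an onc3 transposon. Normal adipose tissue came from C57BL/6 mice with SB Transposase and onc3 but no Cre, so both groups held the transposase and the transposon. There were 8 anomaly libraries of 7 animals, with a leg and an arm piece of animal M566, and 4 normal libraries of 4 animals. The M566 pieces were averaged, so n is 7 anomaly and 4 normal animals below. The anomalies of 5 animals (M580, M566, F578, M610, M605) carry subQ in their titles, and those of 18f and M278 carry fat, as do all normal samples. For the subQ samples, titled site and condition cannot be told apart. Age was not given in the sources used here.

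Mitochondria shorten fatty acids by repeated oxidation. Long chains enter as carnitine esters, acyl-CoA dehydrogenases start each round, a hydratase, a dehydrogenase and a thiolase complete it, and electrons leave through the electron transfer flavoprotein to the respiratory chain. Peroxisomes shorten very long and branched chains, which enter through ABC half-transporters, and they degrade the hydrogen peroxide that this oxidation makes. Peroxins assemble the organelle and import its proteins. In fat, both organelles serve the fat cell, which stores and releases fatty acids, and in skin the lipid-making sebaceous gland is also rich in peroxisomes.

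Depth was 10337258 to 33980694 reads per library, except 953994 in the library of M580, where the members had 2 to 156 reads and 3 of them fewer than 10. In the other libraries no member had fewer than 20 reads. The column of M605 has a control name in the first header line and an anomaly name in the second header line and the labels, and it was kept as an anomaly. Without it 34 of the 39 members were lower in the anomalies, against 35 with it. The labelled tissue was checked against 14 mature adipocyte markers. All 14 were lower in the anomalies by the test described below (median log2 fold change -4.88), their summed level was 705 to 26600 CPM against 38200 to 90700 CPM in normal tissue, and none was at 0 reads in any library. Adipoq stood at 2.64 in the M566 leg piece, 1.92 in M610 and 3.16 in M580, against 10.55 to 12.23 in normal tissue, so these anomalies nearly lack it. In bulk tissue, fewer cells of a type and less RNA per cell cannot be told apart.

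Markers of skin and muscle also varied between libraries. Epidermal markers, none of 7 tested past the threshold, summed to 5.61 to 13000 CPM in the anomalies and 7.66 to 1230 CPM in normal tissue. Krt14, a basal keratin, was above 5 log2 CPM in anomaly animals M580, M566, F578 and M605 and in normal animal F539. Sebaceous markers (none of 3 tested) summed to 9.07 to 2400 CPM in the anomalies and 15.9 to 1870 CPM in normal tissue, with the highest anomaly sum in the M566 leg piece and the highest normal sum in F539. These highest sums rest on different genes, since the sebaceous marker Awat2 made up most of the leg sum and was low in F539 (values below). Skeletal muscle markers (none of 9 tested) summed to 17.0 to 6430 CPM in the anomalies and 840 to 2690 CPM in normal tissue, with the low end in the M566 leg piece, where Tnnc2 was at 0 reads, and 18f. Flg, a late epidermal gene, was at 0 reads in M610, M278 and M602. Brown and beige adipocyte markers, 3 of 5 tested lower, summed to 13.4 to 154 CPM in the anomalies and 60.8 to 298 CPM in normal tissue. Of markers of other cells, 3 of 8 macrophage, 4 of 8 endothelial and 5 of 8 lymphocyte markers and 7 of 7 genes of dividing cells were higher in the anomalies. Of 8 fibroblast markers 1 was higher and 1 lower, and of 2 hepatocyte markers tested 1 was lower. Their part in the results below was not tested.

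Fatty acid oxidation and peroxisome genes were lower in the anomalies almost throughout. Of the 39 genes, 35 fell and none rose by limma (two-sided, Benjamini-Hochberg adjusted p under 0.05 over all genes tested). Over all 12955 genes, 23.2% were lower and 15.3% higher. At an unadjusted p under 0.05, 37 members were lower and 0 higher, against 28.6% and 19.9% of all genes, and limma-voom on recovered reads gave 35 lower and 0 higher. The median log2 fold change was -1.94 over the members and -0.10 over all genes tested. In 25 of the 39 every anomaly animal lay below every normal animal, against 12.4% of all genes tested, and in none was the order the reverse, against 8.3%. These counts use the mean of the M566 pieces. The leg piece on its own reached the normal range or passed it for some of the 25, among them Scp2 (8.50) and Pex5 (7.29), both above all normal animals. Summed over the members, the RNA level was 1330 to 5420 CPM in the anomaly libraries and 7470 to 10600 CPM in normal tissue, and these ranges do not overlap.

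The call count depends on scaling and on which animals enter. With scaling by library totals alone, 29 members were lower, the median of all genes moved to 0.33 and the calls over all genes went from 3001 lower and 1985 higher to 1575 lower and 4573 higher. Without the 5 animals with Krt14 above 5, which leaves 3 animals a group, 16 members were lower, with a median of -1.83.

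**Figure D1:**
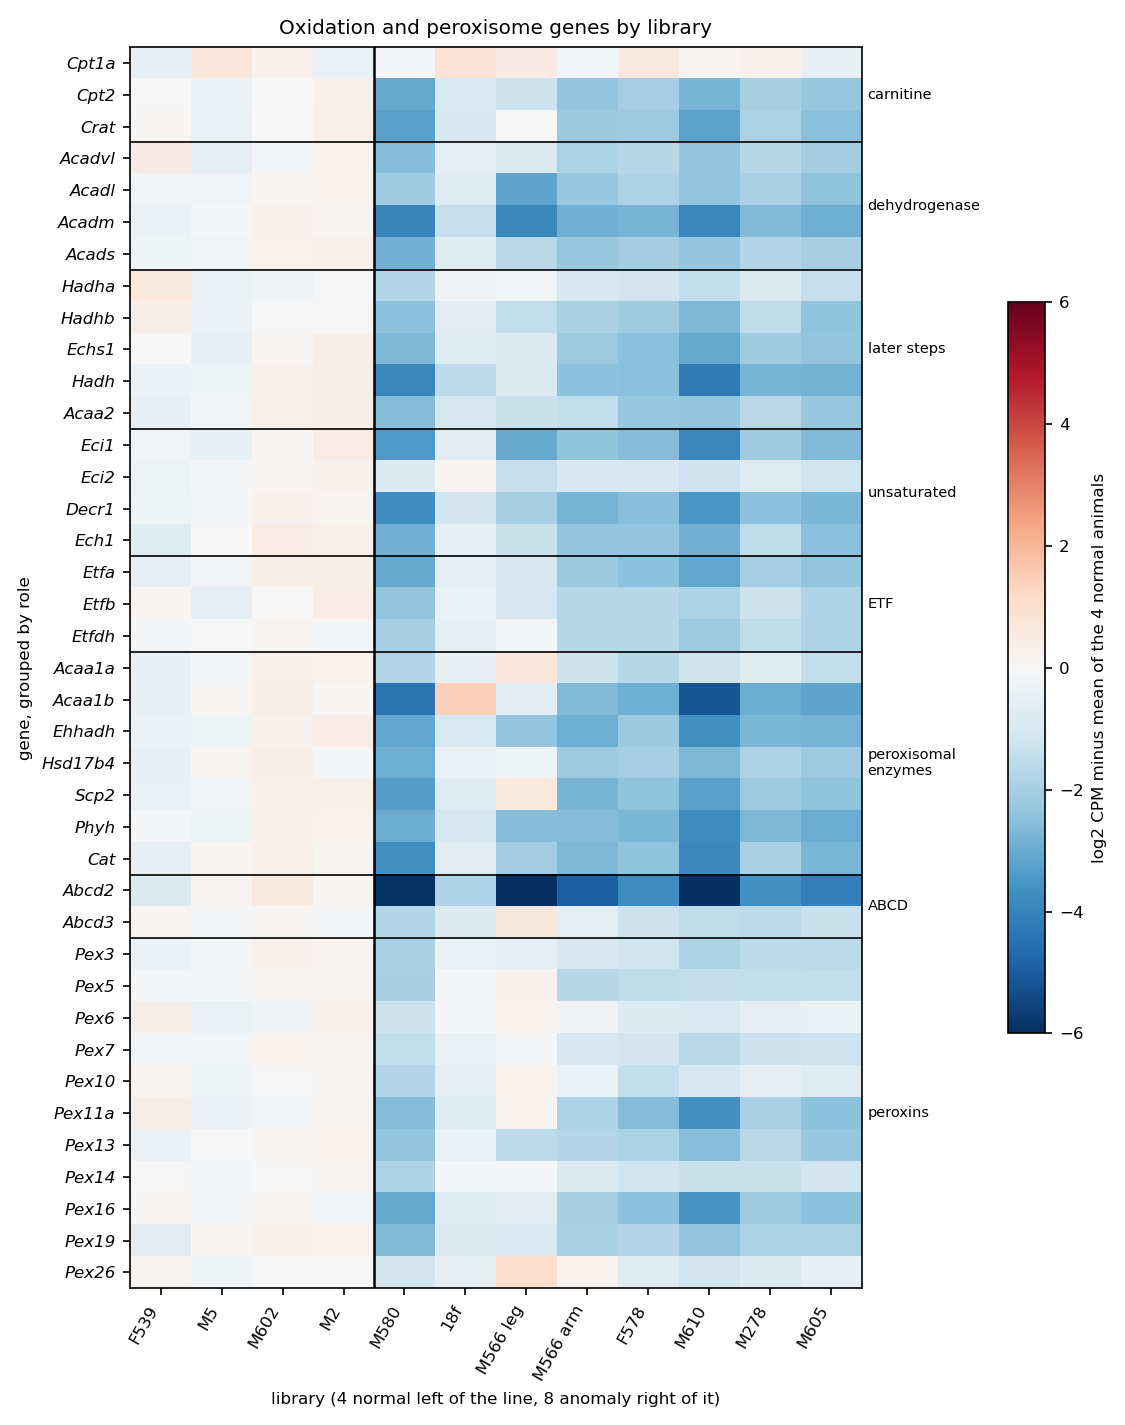
Log2 CPM of each of the 39 genes in each library minus its mean over the 4 normal animals (colour, scale from -6 to 6, with lower values drawn at -6), genes in rows by role and libraries in columns. The anomaly columns are blue for nearly all genes; 18f and the M566 leg piece are paler, and Cpt1a at the top stays near white.

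Carnitine acyltransferases pass acyl groups to and from carnitine. Cpt1a, the form best known from liver, which loads long chains onto carnitine at the outer mitochondrial membrane, was the only member with a positive difference. It lies at chr19:3322334-3385733 (GRCm38, plus strand). In normal tissue it stood at 6.34 (F539), 7.63 (M5), 7.18 (M602) and 6.54 (M2), and in the anomalies at 6.49 to 7.81 with a median of 7.10. The groups overlap fully, with no anomaly animal below the lowest normal one. The log2 fold change was 0.23 ± 0.29 (SE, adjusted p = 0.556, 95% interval -0.41 to 0.86), and it was 0.65 (adjusted p = 0.0501) with scaling by library totals and -0.18 and -0.01 when animals were left out as listed in the closing section. Cpt2, which returns the chains to CoA inside the mitochondrion, fell by 2.12 ± 0.34 (adjusted p = 0.00152).

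Crat (chr2:30400471-30415813, minus strand), which moves acetyl groups between CoA and carnitine, stood at 8.83, 8.36, 8.74 and 9.04 in normal animals F539, M5, M602 and M2. In the anomalies it ranged from 5.48 through a median of 6.55 to 7.79, below all normal animals. It fell by 2.16 ± 0.44 (adjusted p = 0.00408). The M566 leg piece on its own was at 8.72, within the normal range, while the arm piece was at 6.52. The Cpt1a promoter is shown because Cpt1a is the mitochondrial gene of the list that did not fall. The window, from RefSeq on GRCm38.p6, is chr19:3323051-3323350 on the plus strand, 250 bases before to 50 after the start, and capitals mark 2 matches to the GC box GGGCGGGG on the minus strand.
Cpt1a: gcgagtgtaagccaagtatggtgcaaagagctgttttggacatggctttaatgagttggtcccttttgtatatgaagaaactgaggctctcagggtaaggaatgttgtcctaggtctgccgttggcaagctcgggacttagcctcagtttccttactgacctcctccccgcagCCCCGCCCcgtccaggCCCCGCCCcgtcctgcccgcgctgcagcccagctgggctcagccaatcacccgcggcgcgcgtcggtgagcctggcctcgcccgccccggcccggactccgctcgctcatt
GC box matches were present in 15 of the 33 members with a window (45.5%) and in 19.6% of the 27025 genes with a window.

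Acyl-CoA dehydrogenases, which open each round of oxidation for chains of different length, all fell (4 of 4, median -1.99). Acadm, for medium chains, lies at chr3:153922357-153944632 on the minus strand. It stood at 8.58, 8.89, 9.20 and 9.11 in F539, M5, M602 and M2, and in the anomalies at 5.0 to 7.55 with a median of 6.04. No anomaly animal reached the normal range. Its fall of 3.0 ± 0.42 (adjusted p = 0.00111), or 7.99-fold, was the second largest of the 39. Acadvl, for very long chains (chr11:70010183-70015411, minus strand), fell least of the 4. Normal animals F539, M5, M602 and M2 had 7.72, 6.69, 7.16 and 7.45, and the anomalies ranged from 4.66 through 5.53 to 6.73. Only 18f, at 6.73, reached the normal range, and the fall was 1.77 ± 0.36 (adjusted p = 0.00386). Opposite-strand Dvl2 overlaps 42.9% of its exon bases, and since the kit marks no strand, reads of the 2 genes cannot be told apart there. Acadl and Acads, for long and short chains, fell by 2.02 and 1.96, with no overlap between groups.

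The Acadm promoter is shown because Acadm fell most among the mitochondrial genes. It is chr3:153944594-153944893 on the minus strand (RefSeq, GRCm38.p6), and capitals mark the one match, on the other strand, to AAGGTCA, a half-site bound by nuclear receptors.
Acadm: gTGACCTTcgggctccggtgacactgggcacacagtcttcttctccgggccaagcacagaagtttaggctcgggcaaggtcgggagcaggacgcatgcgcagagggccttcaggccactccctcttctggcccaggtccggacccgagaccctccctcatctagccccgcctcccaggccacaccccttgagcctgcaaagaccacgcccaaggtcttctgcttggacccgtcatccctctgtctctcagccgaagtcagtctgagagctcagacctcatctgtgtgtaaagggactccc
Acadm was the only one of 33 members with this half-site in its window (3.03%), which was present in 5.38% of all genes with a window. A match here is a description of letters and not a site shown to be bound.

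The later steps of the mitochondrial spiral fell in 5 of 5 genes (median -1.94). Hadh, the hydroxyacyl-CoA dehydrogenase for shorter chains (chr3:131233419-131272101, minus strand), stood at 8.76, 8.82, 9.36 and 9.44 in F539, M5, M602 and M2. The anomalies ranged from 4.87 through 6.30 to 7.52, all below normal tissue. It fell by 2.79 ± 0.49 (adjusted p = 0.00214). Echs1, the enoyl-CoA hydratase for shorter chains, fell by 2.15 ± 0.39, and Acaa2, a mitochondrial thiolase, by 1.94 ± 0.31.

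Hadha and Hadhb encode the alpha and beta subunits of the mitochondrial trifunctional protein, which carries out these steps on long chains. Hadha (chr5:30118304-30155162, minus strand) stood at 9.03, 8.03, 8.23 and 8.39 in F539, M5, M602 and M2, and in the anomalies at 6.65 to 8.23 with a median of 7.29. Among the animals only 18f reached the normal range, while the M566 leg piece on its own was at 8.27, also within it. Hadha fell by 1.06 ± 0.30 (adjusted p = 0.0185), the least of the 5, and the call was lost with library totals (-0.64, adjusted p = 0.113) and without normal animal F539 (-0.86, adjusted p = 0.0513). Hadhb (chr5:30155248-30184593, plus strand) stood at 6.14, 5.37, 5.74 and 5.70 in the same 4 animals and at 3.06 to 5.07 in the anomalies, with a median of 3.62 and no overlap. It fell by 1.94 ± 0.35 (adjusted p = 0.00242).

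The difference between the subunits within a library does not depend on how that library was scaled. Hadha minus Hadhb was 2.88, 2.66, 2.49 and 2.70 log2 units in F539, M5, M602 and M2, and 3.15 to 3.99 in the 8 anomaly libraries with a median of 3.62. All 8 anomaly libraries lay above the 4 normal ones. This pair was chosen after its values were seen, and no test was run. Of the 50-base windows of Hadhb, 19.7% also occur in the processed pseudogene Gm13910, whose share of these reads was not tested.

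The RefSeq start sites of the subunit genes lie 273 bases apart, in opposite directions. The GENCODE starts, 30155162 for Hadha and 30155248 for Hadhb, lie closer together. The Hadhb promoter is shown because both genes read from it. The Hadhb window is chr5:30155003-30155302 on the plus strand (RefSeq, GRCm38.p6), and capitals mark the 228 bases that also lie in the window of Hadha.
Hadhb: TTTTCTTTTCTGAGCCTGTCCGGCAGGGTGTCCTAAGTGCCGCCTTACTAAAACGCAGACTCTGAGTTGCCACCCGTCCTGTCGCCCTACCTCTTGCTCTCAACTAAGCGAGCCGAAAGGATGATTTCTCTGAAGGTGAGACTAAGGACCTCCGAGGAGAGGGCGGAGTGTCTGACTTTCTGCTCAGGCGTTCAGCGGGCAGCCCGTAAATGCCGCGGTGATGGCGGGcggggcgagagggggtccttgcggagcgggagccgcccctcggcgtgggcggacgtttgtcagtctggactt

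Enzymes for unsaturated chains fell in 4 of 4 genes (median -2.33). Decr1, the dienoyl-CoA reductase (chr4:15917240-15945507, minus strand), stood at 7.96, 8.10, 8.49 and 8.40 in F539, M5, M602 and M2. The anomalies ranged from 4.53 through 5.67 to 7.08, all below normal tissue, and the fall was 2.64 ± 0.40 (adjusted p = 0.00131). Eci2, an enoyl-CoA isomerase found in peroxisomes as well (chr13:34977748-35027096, minus strand), stood at 6.14, 6.38, 6.58 and 6.71. The anomalies had 5.24 to 6.59 with a median of 5.51, and 18f lay inside the normal range. Its fall of 0.85 ± 0.25 (adjusted p = 0.0192) was the smallest among the 35. That call was lost in 5 of 25 alternative settings, among them library totals (-0.42, adjusted p = 0.129) and leaving out M602 (adjusted p = 0.0626) or M2 (adjusted p = 0.0663). Eci1, the other mitochondrial isomerase, fell by 2.58 ± 0.50 and Ech1, a dienoyl-CoA isomerase, by 2.07 ± 0.44.

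The electron transfer flavoprotein and its dehydrogenase take electrons from the acyl-CoA dehydrogenases to ubiquinone, and 3 of 3 genes fell (median -1.55). Etfa, the alpha subunit (chr9:55454508-55512243, minus strand), stood at 7.64, 8.0, 8.51 and 8.51 in F539, M5, M602 and M2, and at 5.05 to 7.63 in the anomalies with a median of 5.82. The highest anomaly animal, 18f, was just under the lowest normal one, and the fall was 2.16 ± 0.44 (adjusted p = 0.00409). Etfdh, the ubiquinone oxidoreductase (chr3:79603788-79629500, minus strand), stood at 7.11, 7.21, 7.37 and 7.14, and at 5.04 to 6.62 in the anomalies with a median of 5.52. It fell by 1.52 ± 0.28 (adjusted p = 0.0027), also with no overlap between animals. The M566 leg piece on its own was at 7.15, within the normal range. Etfb, the beta subunit, fell by 1.55 ± 0.34, but Gm45233 on the same strand covers 58.2% of its exon bases, so its reads are uncertain.

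**Figure D2:**
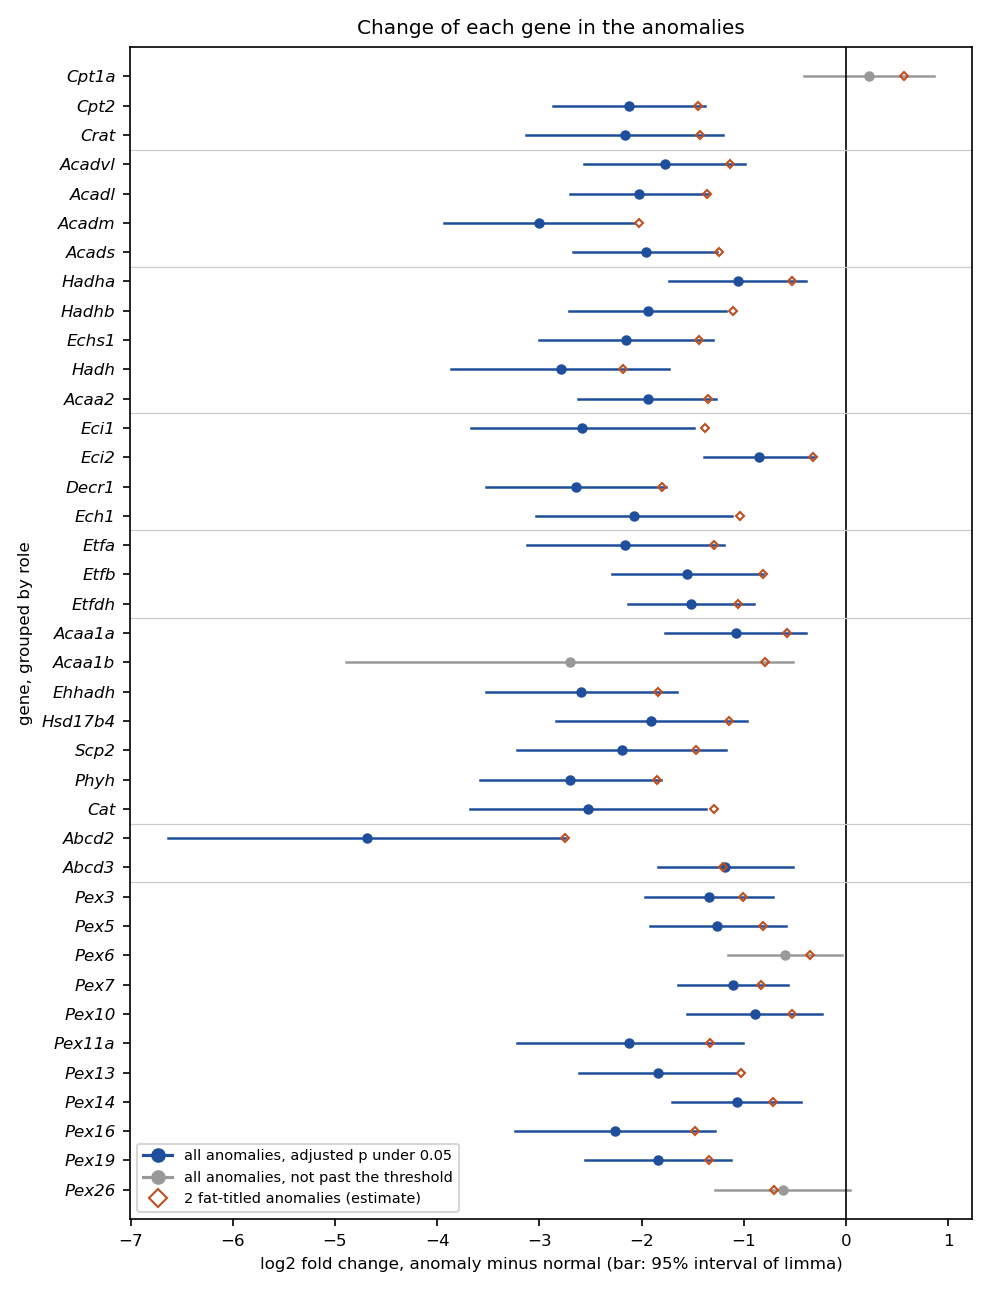
Log2 fold change of each gene, anomaly minus normal (circles, 7 against 4 animals, bars are 95% intervals of limma), and the estimate for the 2 fat-titled anomalies alone (open diamonds). All circles but that of Cpt1a lie left of 0, from -0.60 for Pex6 to -4.69 for Abcd2; most diamonds lie closer to 0 than the circles.

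Peroxisomal matrix enzymes fell in 6 of 7 genes (median -2.52). Phyh, which hydroxylates phytanoyl-CoA for alpha-oxidation of branched chains (chr2:4919019-4938730, plus strand), stood at 7.72, 7.55, 8.11 and 8.06 in F539, M5, M602 and M2. The anomalies ranged from 4.07 through 5.10 to 6.84 and did not reach normal tissue. It fell by 2.70 ± 0.40 (adjusted p = 0.00121). Ehhadh and Hsd17b4, the bifunctional enzymes of peroxisomal oxidation, fell by 2.59 ± 0.43 and 1.91 ± 0.43. Cat, the catalase that splits hydrogen peroxide, fell by 2.52 ± 0.53, and Scp2, which encodes a thiolase for branched chains and a lipid carrier, by 2.19 ± 0.47. Scp2 shares 29.7% of its 50-base windows with Scp2-ps2, so part of its reads is uncertain.

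Acaa1a and Acaa1b encode close copies of the peroxisomal thiolase. Acaa1a (chr9:119339676-119350299, plus strand) stood at 6.45, 6.90, 7.26 and 7.18 in F539, M5, M602 and M2, and at 5.19 to 6.68 in the anomalies with a median of 5.72. The groups overlap through 18f (6.52) and M566 (6.68). Acaa1a fell by 1.08 ± 0.31 (adjusted p = 0.0196), a call lost in 6 of 25 settings, among them library totals (adjusted p = 0.0766), limma-voom (adjusted p = 0.05) and leaving out M602 (adjusted p = 0.0699) or M2 (adjusted p = 0.063). Acaa1b (chr9:119148023-119157093, minus strand) stood at 4.52, 5.05, 5.33 and 5.04 in the same normal animals. In the anomalies it ranged from -0.19 (M610) through a median of 2.0 to 6.39 (18f). Of the 7 anomaly animals 6 lay below normal tissue, and 18f lay above it. The log2 fold change of -2.70 ± 0.99 missed the threshold (adjusted p = 0.0509, 95% interval -4.89 to -0.52), while limma-voom gave -2.33 (adjusted p = 0.0481). Without 18f the difference was -3.39 (adjusted p = 0.00161). In M580 the value rests on 2 reads.

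Acaa1a minus Acaa1b was 1.93, 1.85, 1.93 and 2.14 log2 units in F539, M5, M602 and M2. In the anomaly libraries it was 0.13 in 18f and 3.21 to 5.91 in the other 7. The difference was steady in normal tissue, smaller in 18f and larger in the other anomaly libraries. The pair was chosen after its values were seen, and no test was run. Reads of the copies are uncertain, since 39.6% of the 50-base windows of Acaa1b also occur in Acaa1a. Their promoters are shown because the copies changed unequally. They are chr9:119341044-119341343 on the plus strand and chr9:119157044-119157343 on the minus strand (RefSeq, GRCm38.p6), and capitals mark the CCAAT box, CCAAT on either strand, with 4 matches in each. In Acaa1b a pair of these matches, one on each strand, overlap.
Acaa1a: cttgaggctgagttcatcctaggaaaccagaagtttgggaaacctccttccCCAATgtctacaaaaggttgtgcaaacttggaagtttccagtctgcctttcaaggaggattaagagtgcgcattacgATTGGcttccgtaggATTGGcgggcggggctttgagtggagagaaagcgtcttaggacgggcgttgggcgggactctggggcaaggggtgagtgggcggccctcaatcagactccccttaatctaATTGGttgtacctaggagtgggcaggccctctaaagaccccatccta
Acaa1b: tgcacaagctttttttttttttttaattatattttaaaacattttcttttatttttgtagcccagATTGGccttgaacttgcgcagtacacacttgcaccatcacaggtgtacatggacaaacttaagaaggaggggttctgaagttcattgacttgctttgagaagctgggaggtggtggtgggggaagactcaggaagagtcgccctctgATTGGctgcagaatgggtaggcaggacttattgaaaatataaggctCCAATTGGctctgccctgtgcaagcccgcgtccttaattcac
Set base against base, the windows were identical at 88 of 300 positions, with a longest shared run of 8 bases. CCAAT was present in 13 of 33 members with a window (39.4%) and in 41.1% of all genes with a window.

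The peroxisomal half-transporters both fell. Abcd2, a carrier of very long and unsaturated chains known to be abundant in fat (chr15:91145871-91191799, minus strand), stood at 8.74, 9.76, 10.15 and 9.73 in F539, M5, M602 and M2. The anomalies ranged from 2.41 (M610) through a median of 5.49 to 7.76 (18f), all below normal tissue. Its fall of 4.69 ± 0.88 (adjusted p = 0.00293), or 25.8-fold, was the largest of the 39 and lay near the adipocyte marker median of -4.88. Abcd3, which also carries branched chains and bile acid precursors (chr3:121758774-121815302, minus strand), stood at 7.22, 6.94, 7.15 and 7.01. The anomalies had 5.33 to 7.14 with a median of 5.73, where M566 alone lay in the normal range. Abcd3 fell by 1.18 ± 0.30 (adjusted p = 0.0112), and the call was lost with library totals (adjusted p = 0.0665) and with the M566 leg piece in place of the mean (adjusted p = 0.0518).

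Peroxins fell in 9 of 11 genes, with a median of -1.26. Of the genes for inserting membrane proteins, Pex16 (chr2:92374676-92381217, plus strand) stood at 7.22, 7.09, 7.25 and 7.04 in F539, M5, M602 and M2 and at 3.63 to 6.39 in the anomalies, with a median of 4.67. The groups do not overlap, and the fall of 2.26 ± 0.45 (adjusted p = 0.00357) was the largest of the 11. Pex19 and Pex3, its partners, fell by 1.84 ± 0.32 and 1.34 ± 0.29. The import receptors Pex5 and Pex7 fell by 1.26 ± 0.30 and 1.10 ± 0.24, and the docking factors Pex13 and Pex14 by 1.84 ± 0.35 and 1.07 ± 0.29. With library totals the call of Pex14 was lost (-0.64, adjusted p = 0.0684). Pex11a, which elongates peroxisomes before they divide, fell by 2.12 ± 0.50. In Pex14, antisense Gm17029 covers 28.3% of the exon bases.

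The genes that recycle the import receptor had the smallest differences among the peroxins. Pex10, part of the ubiquitin ligase, fell by 0.89 ± 0.30 (adjusted p = 0.0366), with 1.90 to 3.57 in the anomalies against 3.39 to 3.78 in normal tissue, and its call was lost in 13 of 25 settings (adjusted p up to 0.214), among them leaving out F578, M610, M605 or any one normal animal. Pex6 (chr17:46711463-46725541, plus strand), an ATPase that pulls the receptor back out, stood at 6.94, 6.19, 6.41 and 6.87 in F539, M5, M602 and M2, and at 5.30 to 6.61 in the anomalies with a median of 6.04. The groups overlap. Its log2 fold change was -0.60 ± 0.25 (adjusted p = 0.0837, 95% interval -1.15 to -0.04), and -0.70 without M566 (adjusted p = 0.0412). Pex26 (chr6:121183667-121198837, plus strand), which anchors that ATPase, stood at 4.69, 4.24, 4.55 and 4.54, and at 3.34 to 5.13 in the anomalies with a median of 3.74. M566 was above all normal animals and the other 6 below them. The log2 fold change was -0.62 ± 0.30 (adjusted p = 0.123, 95% interval -1.28 to 0.04), and without M566 it was -0.83 (adjusted p = 0.00534).

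The role lists were joined into 19 mitochondrial members, with the enzymes for unsaturated chains, and 20 peroxisomal members. The split is by list and not strictly by organelle. Eci2, for example, is found in peroxisomes as well and is among the 19. Of the mitochondrial members 18 of 19 fell (median -2.02), and of the peroxisomal members 17 of 20 (median -1.84). For comparison, 22 of 22 respiratory chain genes fell with a median of -1.23, and 11 of 15 genes of the mitochondrial ribosome with a median of -0.69. No test of the difference between these lists was run.

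Levels of different genes were compared per 1000 exon bases, with the joined exons of GENCODE vM21 as length. In normal tissue the highest median was that of Cat at 386 CPM per 1000 bases, followed by Ech1 at 300.0 and Acadl at 203. Abcd2 stood sixth at 144 and fell to 7.54 in the anomalies. At the low end were Pex7 at 3.09, Pex10 at 4.03 and Pex26 at 4.13. In the anomalies the highest medians were again Cat at 67.2, Ech1 at 54.1 and Acadl at 46.3, while Cpt1a stood at 17.9 against 15.6 in normal tissue. Genes with long annotated exons, such as Hadha with 8730 exon bases, are understated on this scale.

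**Figure D3:**
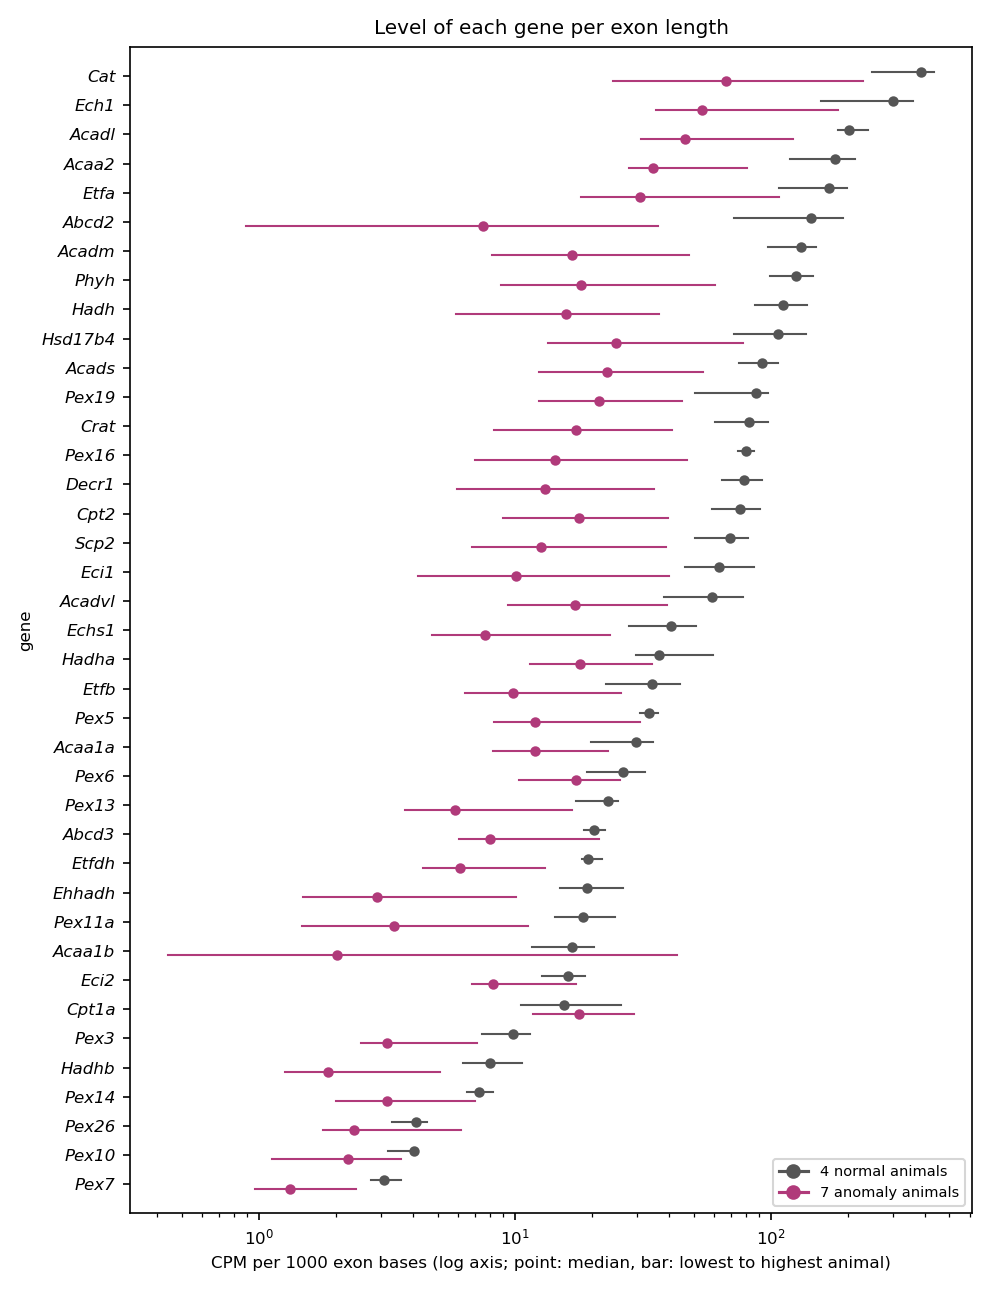
CPM per 1000 exon bases (log axis) of each gene in 4 normal animals (grey) and 7 anomaly animals (purple); points are medians and bars run from the lowest to the highest animal. Normal levels run from 3.09 for Pex7 to 386 for Cat, and the purple bar of Abcd2 is among the longest and reaches furthest below its grey bar.

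The size of the difference varied between anomalies. As the median over the 39 genes of log2 CPM minus the normal mean, the libraries of M580 (-2.62), M610 (-2.56), M605 (-2.28) and F578 (-2.07) were lowest. The M566 arm piece was at -1.94 and M278 at -1.74. The M566 leg piece (-0.89) and 18f (-0.63) were closest to normal tissue, where single animals lay between -0.18 and 0.19. Below the lowest normal animal were 38 of 39 members in M580, M610, M605, F578 and M278 each, 36 in the M566 arm piece, 28 in 18f and 24 in the M566 leg piece. Of all genes tested, 53.6% lay below the lowest normal animal in M580, 29.3% in 18f, 39.7% in the leg piece, 39% in the arm piece and 37.1% to 38.8% in F578, M610, M278 and M605.

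These medians did not keep the order of the adipocyte markers. The 14 markers were at -8.70 in M610, -7.75 in the M566 leg piece, -7.00 in M580, -4.64 in the arm piece, -4.04 in M605, -3.63 in F578, -2.79 in M278 and -1.71 in 18f. The leg piece thus had nearly the lowest adipocyte markers and nearly the highest oxidation and peroxisome genes.

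**Figure D4:**
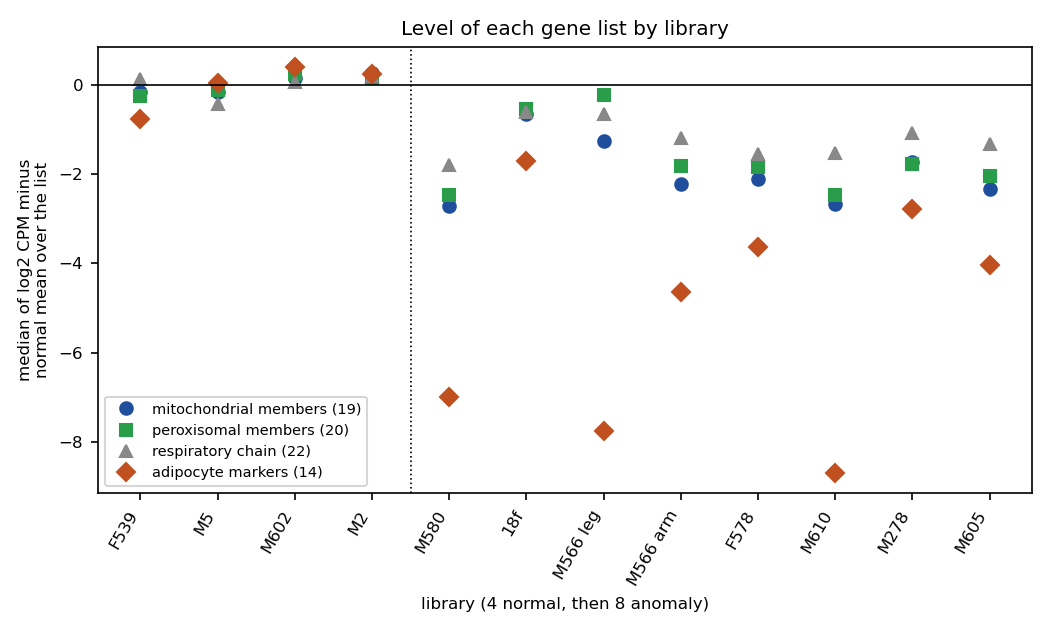
Median over each gene list of log2 CPM minus the normal mean, by library: 19 mitochondrial members (circles), 20 peroxisomal members (squares), 22 respiratory chain genes (triangles) and 14 adipocyte markers (diamonds). Adipocyte markers are lowest in each anomaly library; in the M566 leg piece the peroxisomal members are at -0.22 while the adipocyte markers are at -7.75.

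In the M566 leg piece the peroxisomal members stood nearer to normal tissue, by their median, than the mitochondrial ones. Its mitochondrial members had a median of -1.27 and its peroxisomal members -0.22, against -2.23 and -1.83 in the arm piece of the same animal. In the leg piece, 6 peroxisomal members and no mitochondrial member were above every normal animal. The share of all genes tested that lay above every normal animal in this piece was not counted. The 6 members were Scp2 at 8.50, Abcd3 at 7.75, Acaa1a at 7.68, Pex5 at 7.29, Pex26 at 5.55 and Pex10 at 3.87. In contrast, Abcd2 had its lowest value of all libraries in the leg piece, 1.84 against 4.68 in the arm. Between the pieces, 33 members were higher in the leg and 5 in the arm, 15 in the leg by over 1 log2 unit and only Abcd2 in the arm by as much. Neither these counts nor the medians that follow were taken over all genes tested, so no background stands beside them. The leg minus arm difference had a median of 0.83 and was 3.41 for Scp2, 2.20 for Crat, 2.11 for Pex11a and 2.0 for Acaa1a. Its median was nearly the same over the mitochondrial members (0.78) and the peroxisomal members (0.87). Other lists in the leg piece lay closer together, as medians relative to normal tissue. Other peroxisomal genes were at -0.52, other mitochondrial oxidation, activation and malonyl-CoA genes at -0.79 and respiratory chain genes at -0.66. With 1 piece of each kind from 1 animal there is no replicate check.

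Markers of other cells also differed between the pieces. The median log2 CPM of 8 epidermal markers was 6.78 in the leg and 10.48 in the arm, and their sum was 8610 and 13000 CPM. Krt14 went against that order, with 12.12 in the leg piece and 10.72 in the arm piece. The median of 6 sebaceous markers was likewise lower in the leg, 4.2 against 6.1, while their sum was higher, 2400 against 467 CPM. Awat2, a wax ester synthase of the sebaceous gland, was at 11.07 in the leg piece, 2.28 in the arm piece and -0.38 to 0.23 in normal tissue. Muscle markers were lower in the leg, with Ckm at -0.05 against 9.01 in the arm. Far1, which makes fatty alcohols at the peroxisome, reached 9.72 in the leg piece against 5.53 in the arm. The part of these cells in the members' values was not tested.

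**Figure D5:**
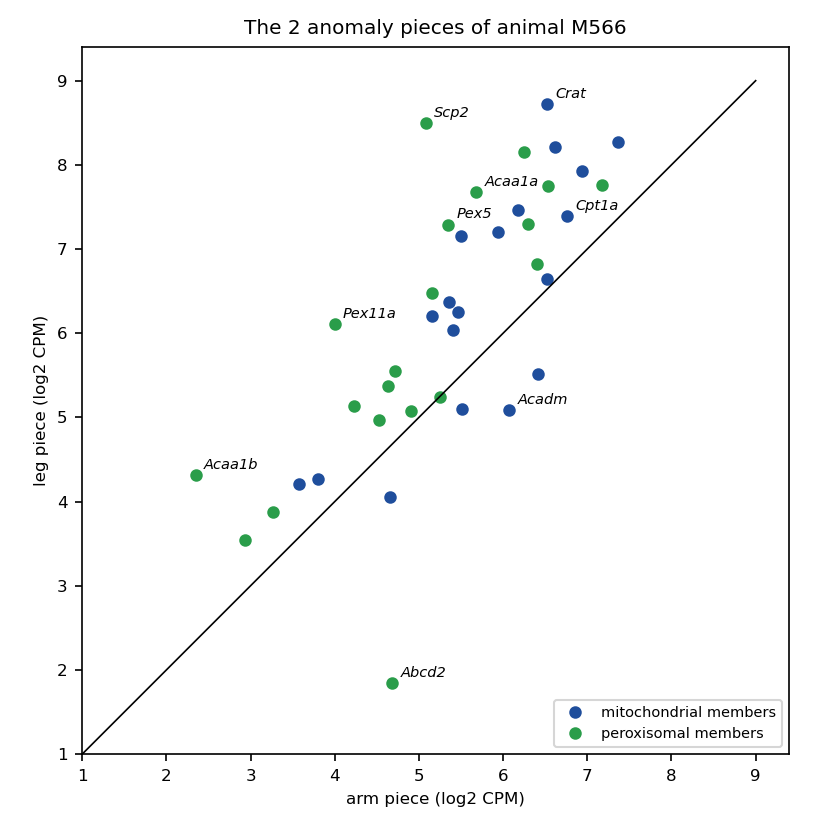
Log2 CPM of the 39 genes in the arm piece (horizontal) and the leg piece (vertical) of animal M566, with mitochondrial members in blue, peroxisomal members in green and the line of equal values. Most points lie above the line, Scp2 furthest; Abcd2 lies far below it.

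Normal tissue was then compared with the 2 anomalies that share its title, fat. In a model with 3 groups, 8 of 39 members fell and none rose (limma-voom called 9 lower and 0 higher), while 4.48% of all genes tested were lower and 6.76% higher. At an unadjusted p under 0.05, 28 members were lower and 0 higher, against 14.7% and 14.8% of all genes. The median was -1.20. The 8 were Cpt2, Acadl, Acadm, Acads, Acaa2, Decr1, Ehhadh and Phyh, led by Acadm at -2.02 ± 0.42 (adjusted p = 0.0194) and Phyh at -1.85 ± 0.43 (adjusted p = 0.0271). The 2 animals were unlike, and without M278 no member passed (median -0.63), nor without normal animal M602 (median -1.17). Without M2 or M5, 1 and 3 passed, without M605 4, without 18f 13, and without M566 17.

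The 5 subQ-titled anomalies had lower values than the 2 fat-titled ones for 37 of 39 members (median difference -1.0). No member passed the adjusted threshold in that contrast, where 0.0232% of all genes were lower and 0.0154% higher. At an unadjusted p under 0.05, 19 members were lower and 0 higher, against 11.1% and 3.72% of all genes, and limma-voom gave 17 and 0, with 0 after adjustment. The size depends on which fat-titled animal is used. Without 18f the median difference was -0.38 (-0.08 over all genes) with no member past the threshold, and without M278 it was -1.51 (-0.20 over all genes) with 3 past it. Adipocyte, epidermal and muscle markers had larger median differences in the same contrast, with none past the threshold. The median difference was -3.28 over the 14 adipocyte markers, all negative, 5.90 over 7 epidermal markers and 1.73 over 9 muscle markers, all positive. Their part in the members' difference was not tested. Both contrasts use the same fat-titled anomalies, so they are not independent.

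Other genes of the same pathways, from a list of 73 of which 62 were tested, were lower in 40 cases and higher in 2 (median -1.0), with Mlycd, which belongs to both organelles, counted once. In the list of other mitochondrial oxidation, acyl-CoA activation and malonyl-CoA genes, not sorted strictly by organelle, 12 of 23 fell and 2 rose. The largest falls were those of Acsm5, a medium-chain acyl-CoA synthetase, by 5.02 ± 1.46 (adjusted p = 0.0202), where M610 had 0 reads and the size therefore depends on the authors' prior, and Eci3, a further isomerase, by 4.24 ± 0.67 (adjusted p = 0.0015). Slc25a20, which exchanges acylcarnitines across the inner membrane, fell by 1.11 ± 0.25 (adjusted p = 0.00641). Cpt1c, a relative of Cpt1a known from brain, rose by 1.24 ± 0.43 (adjusted p = 0.0398), and Acsl4, a synthetase that prefers arachidonate, by 0.69 ± 0.19 (adjusted p = 0.0165). Cpt1b, the relative of Cpt1a known from muscle, failed the filter, with -2.93 to 0.07 in the anomalies and -0.82 to 0.42 in normal tissue.

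Of the other peroxisomal genes, 24 of 34 tested fell and none rose. Ephx2, an epoxide hydrolase, fell by 3.74 ± 1.07 (adjusted p = 0.0184) and Pxmp2, a membrane channel, by 3.62 ± 0.50 (adjusted p = 0.00102). Of 6 other peroxins 5 fell, led by Pex11g, by 1.44 ± 0.31 (adjusted p = 0.00503).

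Regulators of these genes fell in 13 of 17 cases and none rose. Ppara, the nuclear receptor that switches on fatty acid oxidation, stood at 3.68, 3.18, 3.45 and 4.39 in F539, M5, M602 and M2, and in the anomalies at -1.32 to 2.66 with a median of 0.46 and no overlap. It fell by 3.23 ± 0.64 (adjusted p = 0.0037). Ppargc1a, a coactivator of mitochondrial genes, stood at 4.18, 2.95, 4.07 and 4.45 and at -1.89 to 1.25 in the anomalies, again with no overlap, and fell by 3.65 ± 0.58 (adjusted p = 0.0015). Of 8 tested targets of Ppara outside oxidation 3 fell, led by Ucp3, a mitochondrial carrier, by 3.82 ± 0.49 (adjusted p = 0.000856), and Plin5, a lipid droplet coat protein, by 3.45 ± 1.0 (adjusted p = 0.0198). Creb3l3, a transcription factor best known from liver, rose by 2.45 ± 0.46 (adjusted p = 0.00282). Ketone body genes fell in 3 of 4 cases, among them Acat1, a thiolase, by 2.42 ± 0.35 (adjusted p = 0.00115).

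Promoter windows were available for 33 of the 39 members; Crat, Acaa2, Decr1, Hsd17b4, Abcd2 and Pex19 are named only. Motifs were searched on both strands. The direct repeat bound by PPAR and RXR (AGGNCA, any base, AGGNCA) was in 0 member windows and in 0.451% of the 27025 genes with a window. TNAAGGTCA, of the ERR kind, which contains the half-site above, was in 0 member windows and in 1.43% of all genes with a window. The NRF1 kind of site (GCGCA, any base, GCGC) was in the windows of Abcd3, Etfb, Etfdh and Pex10 (12.1%) and in 5.19% of all genes with a window. These counts describe 300 bases at each start, and nothing was drawn from them about the factors.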

How the data were processed

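RNA was sequenced from 8 anomaly and 4 normal adipose libraries. Per the labels' protocols, frozen lesions were lysed, their RNA was purified by a kit for lipid tissue, and a poly-A kit that keeps no strand made the libraries. Per the submitters' processing notes, STAR and limma and the builds mm10 and GRCm38 were used; versions are not given in the sources used here. The authors deposited log2 CPM values with a small prior, and the prior and normalization function are not given in the sources used here. The lowest value was -6.97, and 100% of the linear values above it were whole multiples of 1 step within 0.1, which were read as reads. Their totals give the depth, and the steps imply a composition factor of 0.795 to 1.41 per library. Depth limits speak of counting error only.

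The M566 pieces were averaged on the log2 scale. Genes with a mean of at least 1 over the 11 animals were tested with limma (version 3.58.1, statmod 1.5.0, R 4.3.3), with a linear model, a mean trend, robust variances and Benjamini-Hochberg adjustment at 0.05. Adjusted p-values in the text are from this test unless limma-voom is named, and errors of fold changes are its SE. Log2 fold changes are differences, anomaly minus normal, of mean deposited values. The fat-titled and subQ-titled contrasts come from a 3-group model over all animals. Scripts were tested on simulated data.

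Gene names came from the reference annotation, which matched 32671 identifiers; coordinates are GENCODE vM21 on GRCm38. Promoter windows are RefSeq on GRCm38.p6. Read sharing was counted over 50-base windows of the annotated GENCODE vM21 transcripts, searched on both strands of the transcripts of other genes. Members were named in full; values per animal were given for the largest and smallest change in each of 8 role lists, for members that did not pass the threshold and for a few others. From each list of other pathway genes the 2 largest falls and rises past the threshold were named, plus Cpt1b, Slc25a20, Ppara and Ppargc1a, except a few genes not reported here; Phyh, Hadhb, Far1 and the gene pairs were described in full after their values were seen. The members, lists and tests were chosen with earlier results of these data known. The p-values set group differences against the spread between these animals and treat the animals as independent. Whether animals shared a litter or cage is not given in the sources used here, so that independence could not be checked.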

Additional observations from a re-analysis of the deposited data

Results flagged for a closer look

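In 78 groups of 4 or 7 animals (39 genes, each in the anomalies and in normal tissue), the gap of the highest or lowest animal to its neighbour was compared with the range of the group. A limit of 0.568 for 7 animals and 0.829 for 4 was used, which chance passes in about 1 of 20 groups. It was passed in 4 of the 78 groups, all in the anomalies, a share near the one that chance passes. Eci2 in 18f was 6.59 against 5.69 in the next animal, Phyh in 18f was 6.84 against 5.24, and Pex13 in 18f was 6.28 against 5.0. Pex26 in M566 was 5.13 against 4.0, and this mean holds 5.55 in the leg piece and 4.72 in the arm piece. For 18f the whole list stood at -0.63 and the adipocyte markers at -1.71 relative to normal tissue, both the highest among the anomaly libraries. The cause of these values was not tested.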

How the results depend on the processing

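Over 25 alternative settings no member rose. Leaving out 1 animal at a time gave 32 to 37 members lower. Scaling by library totals gave 29 and leaving out the 5 animals with Krt14 above 5 log2 CPM, chosen after seeing the data, gave 16; over all genes these gave 1575 and 1707 lower and 4573 and 1256 higher calls, and single animals left out gave 1823 to 3522 lower and 1205 to 2295 higher, with both low ends without M602. Of the 35 calls, 13 were kept in all settings (Cpt2, Acadl, Acadm, Acads, Hadh, Acaa2, Decr1, Etfdh, Ehhadh, Scp2, Phyh, Pex3 and Pex19). Of the other 22, 16 were lost only without those 5 animals, a setting with fewer animals by construction. Cpt1a reversed without 18f, F578 and F539 (-0.18) and without F539 and the M566 leg piece (-0.01); the cause was not tested.

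In the fat-titled contrast 8 members passed; 4 passed with no filter, 4 with the M566 leg piece alone, 16 with the arm piece alone, 13 without M580 and M566, 15 without F539 and the leg piece, and 0 to 17 without single animals. In the subQ against fat contrast the leave-one-out counts were 0 to 3. The correlation between the M566 pieces could not be estimated from 1 repeated animal and was not run; with the pieces as separate replicates 32 members were lower. No paired analysis was possible because the labels number no replicates across groups. The library of M580, with 953994 reads, limits low genes such as Acaa1b.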
